A study of Mus musculus with 12 samples.

Results

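Endothelial cell genes, 35 genes with expression typical of the cells that line blood and lymphatic vessels, were followed in left ventricle (LV) and right ventricle (RV) tissue of adult mouse hearts. The genes were taken by name from the count table, which listed 40594 genes, and all 35 were found there and passed the filter on low counts that left 15494 genes for testing. The 12 RNA-seq libraries of total RNA fell into 4 groups of 3: Wnt LOF LV, control LV, Wnt LOF RV and control RV. LOF stands for loss of function, and the labels give the genotypes only as Wnt LOF and control. They name no allele, promoter, Cre line or cell type in which Wnt signalling was lost, and they give no sex and no tie between libraries and animals. P-values therefore measure the spread between these libraries, which may in part be technical.

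The endothelium is the inner lining of every vessel. In the heart its largest compartment is the dense capillary bed that runs between the cardiomyocytes and supplies them with oxygen and fatty acids. Endothelial cells receive vascular endothelial growth factor (VEGF) and angiopoietins through receptor tyrosine kinases, hold together through VE-cadherin and claudin junctions, and keep their identity through transcription factors of the ETS, SOX and GATA-associated classes. They also make nitric oxide, which relaxes vessels and modulates the contraction of nearby cardiomyocytes. Wnt signals act on vessels in several organs, where they shape sprouting and the tightness of the vessel wall. The series set Wnt LOF against control in each ventricle, and RV against LV within each genotype. In whole ventricular tissue, fewer endothelial cells and less RNA per endothelial cell cannot be told apart.

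The libraries held between 13274922 and 19173391 counted reads. Levels are given as CPM, read counts put on a common library size, with library sizes scaled by the trimmed mean of M-values (TMM), and differences as log2 fold changes with their standard errors (SE). Some libraries stood apart from their labels. Wif1, a secreted Wnt inhibitor that differed between the ventricles of the other libraries, stood at 13.5 CPM in Wnt LOF LV 1 and at 1.63 to 3.18 CPM in the other LV libraries. It stood at 2.55 CPM in Wnt LOF RV 1 and at 12 to 18.4 CPM in the other RV libraries, so this pair carried the Wif1 level of the opposite ventricle. Aqp4, a water channel, stood at 31.2 CPM in Wnt LOF LV 1 and at 6.88 to 10.5 CPM in the other LV libraries, and at 8.11 CPM in Wnt LOF RV 1 and 23.5 to 35.4 CPM in the other RV libraries. Kcnd2, a potassium channel subunit, stood at 91.2 CPM in Wnt LOF LV 1 and at 27.8 to 44.8 CPM in the other LV libraries, and its 54.2 CPM in Wnt LOF RV 1 was below the 59.5 CPM of the lowest other RV library. Whether these libraries were exchanged cannot be told from the labels, which were kept as given. The sign of every RV minus LV difference in this pair rests on them. Across 9 autosomal genes that were either on or off in each library, control LV 2 matched Wnt LOF LV 1 and Wnt LOF RV 1 at all 9 and control RV 2 at 7, while every other same-numbered RV and LV pair matched at all 9. The libraries numbered 3 in every group were the only ones with the Y-linked gene Ddx3y above 1 CPM. Results are therefore also given without the Wnt LOF pair numbered 1 and without control LV 2. Ctnnb1 encodes the Wnt effector beta-catenin. In the LV it had 395, 532 and 409 CPM in Wnt LOF and 598, 426 and 509 CPM in control, with overlap. In the RV it had 425, 454 and 352 CPM in Wnt LOF and 560, 523 and 511 CPM in control. Each Wnt LOF RV value lay below each control RV value, as for 3.94% of all genes. The labels do not say which gene the loss of function concerns.

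Per kilobase of annotated exon, Fabp4 and Cav1 were the most abundant of the 35 genes. Fabp4, a fatty acid-binding protein of capillary endothelium that adipocytes also make, averaged 87.0 ± 12.7 CPM per kb over the 12 libraries, and Cav1, the coat protein of caveolae, averaged 86.7 ± 10.8 CPM per kb (SD, n = 12 each). These levels lay within each other's spread. Ly6c1, a surface protein of capillary endothelium and of some monocytes, followed at 47.1 ± 7.35, Egfl7, a secreted vessel-matrix protein, at 44.4 ± 4.28, and Rgcc, a regulator of the cell cycle, at 42.2 ± 12.1 CPM per kb, again within each other's spread. At the low end stood Plvap, which forms the diaphragms of fenestrated capillaries, at 3.28 ± 1.23, the transcription factor Sox17 at 3.24 ± 0.476, and Tal1, a helix-loop-helix factor of blood and endothelial cells, at 2.05 ± 0.192 CPM per kb. The defining markers of endothelium were present in every library: the lowest values were 139 CPM for Pecam1, 116 CPM for Cdh5, 173 CPM for Kdr and 177 CPM for Flt1. The genes differed in how far they varied. The highest library exceeded the lowest by 1.29-fold for Tek, the angiopoietin receptor, by 3.24-fold for Plvap and by 3.11-fold for Lyve1, a hyaluronan receptor of lymphatic endothelium and macrophages.

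**Figure D1:**
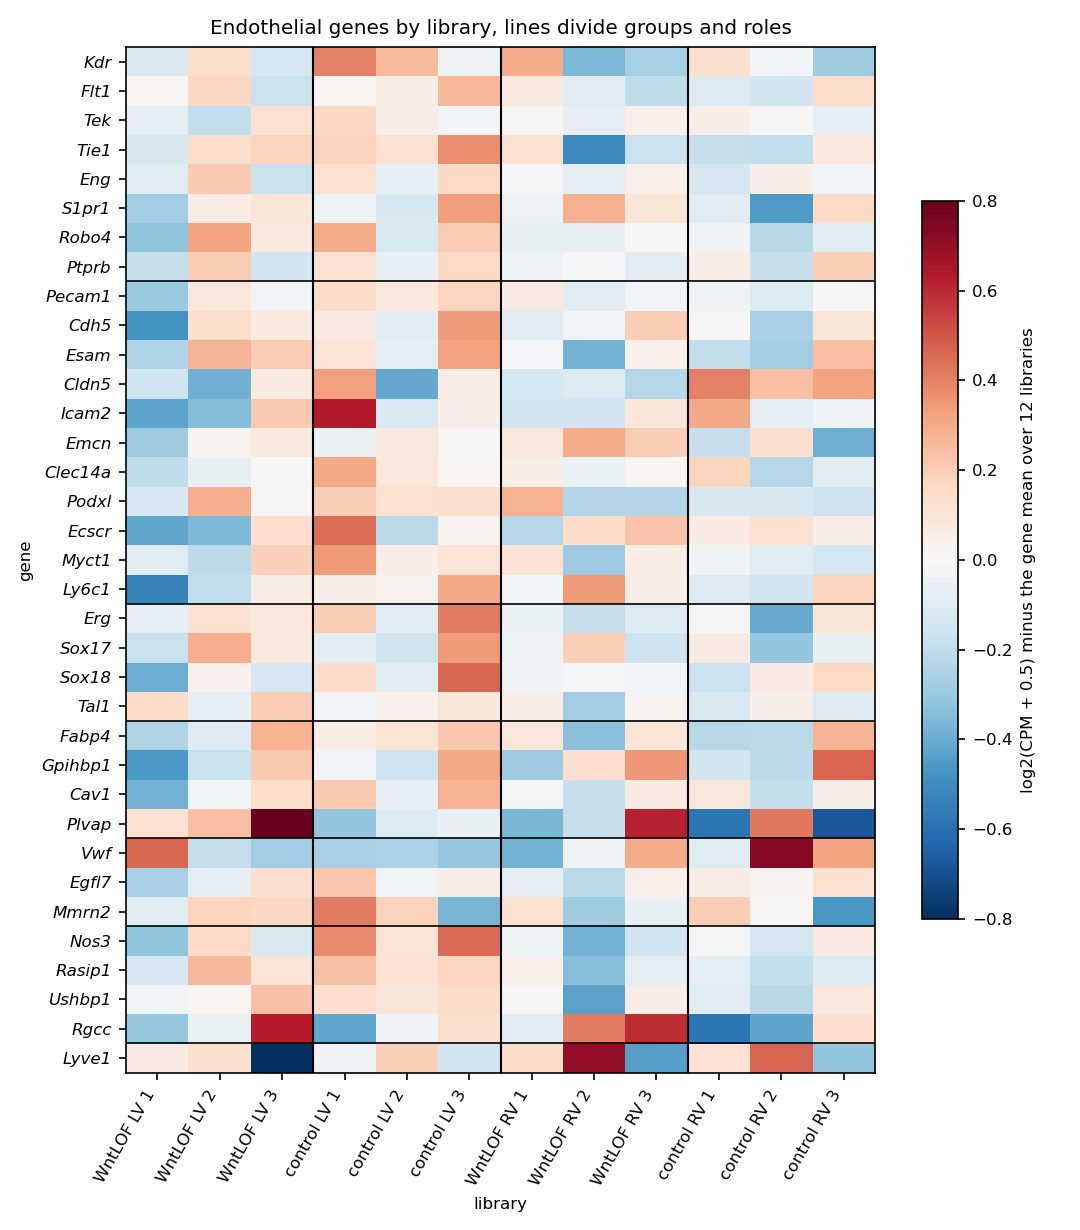
Deviation of each endothelial gene (rows, by role) from its own mean over the 12 libraries (columns), as log2(CPM + 0.5). The Wnt LOF LV 1 column has the lowest median, with a deviation of -0.18, and the control LV 3 column the highest, with 0.16.

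Many of the genes were high or low in the same libraries. Wnt LOF LV 1 had a median deviation of -0.18 on the log2 scale, with 5 of the 35 genes above their own mean, while Wnt LOF LV 2 and 3 had medians of 0.062 and 0.10. Control LV 1 and 3 had medians of 0.15 and 0.16, and control LV 2 had -0.02. The Wnt LOF RV medians were -0.015, -0.094 and 0.039, and the control RV medians were -0.036, -0.13 and 0.05. The spread inside each LV group was therefore as wide as the distance between the LV groups. Wnt LOF LV 1 and Wnt LOF RV 2 each held the lowest value of 10 genes, and control LV 3 held the highest value of 11.

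Wnt LOF against control in the LV gave slightly lower values for most endothelial genes. No gene was called at an adjusted p below 0.05 by edgeR's quasi-likelihood test, neither among the 35 nor among the 15494 genes tested (0%), and DESeq2 also called none. Of the 35 genes, 30 lay below 0 against 50.9% of all genes, with a median log2 fold change of -0.14 against -0.0038 over all genes. Unadjusted p-values below 0.05 were found for 4 genes, all lower in Wnt LOF LV (Nos3, Sox18, Ly6c1 and Pecam1), against 1.42% of all genes lower at that threshold, and none was higher, against 1.43%. The values of 2 genes were lower with no overlap between the groups, Pecam1 and Clec14a, and those of 1 were higher, Plvap, against 3.95% of all genes in each direction. All 8 receptors lay below 0 (median -0.11), as did all 11 junction and surface proteins (median -0.20).

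Nos3, the endothelial nitric oxide synthase, had 29.1, 40.6 and 33.5 CPM in Wnt LOF LV and 47.6, 39.1 and 50.1 CPM in control LV. Wnt LOF LV 2 lay above the lowest control library, so the groups overlapped. The log2 fold change was -0.41 (SE 0.13, unadjusted p = 0.00883 and adjusted p = 0.999 by edgeR with Benjamini-Hochberg adjustment). Sox18, a SOX transcription factor of developing vessels, had 18.3, 24.8 and 22.0 CPM in Wnt LOF LV and 26.9, 22.6 and 33.5 CPM in control LV, with a log2 fold change of -0.35 (SE 0.15). Again a Wnt LOF library lay above a control library. Ly6c1 had 53.8, 68.0 and 81.2 CPM in Wnt LOF LV and 80.5, 79.6 and 96.5 CPM in control LV (log2 fold change -0.34, SE 0.15), and Wnt LOF LV 3 lay inside the control range. Pecam1, the adhesion protein CD31 of endothelial junctions, had 139, 181 and 168 CPM in Wnt LOF LV and 189, 181 and 192 CPM in control LV, with a log2 fold change of -0.20 (SE 0.094). For Pecam1 the highest Wnt LOF library and the lowest control library rounded to the same value, and Wnt LOF LV 1 was far below the rest.

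The groups overlapped for the other defining genes, Kdr, Flt1 and Cdh5. Kdr, the main signalling receptor for VEGF, had 205, 245 and 201 CPM in Wnt LOF LV and 294, 265 and 216 CPM in control LV (log2 fold change -0.25, SE 0.17). Flt1, the VEGF receptor that binds ligand tightly with little signalling, had 206, 229 and 181 CPM in Wnt LOF LV and 206, 211 and 245 CPM in control LV (log2 fold change -0.10, SE 0.12). Cdh5, VE-cadherin of the adherens junction, had 116, 178 and 171 CPM in Wnt LOF LV and 170.2, 152 and 205 CPM in control LV (log2 fold change -0.18, SE 0.16). Wnt LOF LV 1 held the lowest Cdh5 value of all libraries. Clec14a, a C-type lectin on the endothelial surface, had 40.3, 44.5 and 46.4 CPM in Wnt LOF LV and 57.5, 49.2 and 46.9 CPM in control LV. Its highest Wnt LOF value and lowest control value lay close together. Plvap was among the 5 genes above 0: it had 6.76, 7.37 and 11.8 CPM in Wnt LOF LV and 4.89, 5.69 and 5.9 CPM in control LV (log2 fold change 0.66, SE 0.35). Vwf, the platelet-binding protein of Weibel-Palade bodies, had 199.9, 128 and 120.0 CPM in Wnt LOF LV and 121, 122 and 118 CPM in control LV, with Wnt LOF LV 1 far above the rest and a log2 fold change of 0.31 (SE 0.24).

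The median moved most when Wnt LOF LV 1 was left out. Without that library, 22 of the 35 genes lay below 0 and the median was -0.048. None of the 35 then had an unadjusted p below 0.05 by edgeR. Over all 15783 genes of that fit, 199 were higher and 130 lower at that threshold. Among the 35 the number was 1 without the Wnt LOF pair numbered 1. It was 7 without Wnt LOF LV 3, where 417 of 15674 genes were higher and 471 lower. Without control LV 3 the median was -0.084, with 28 genes below 0. Without the Wnt LOF pair numbered 1 and control LV 2 together, 27 genes lay below 0 and the median was -0.11. Nos3 stood at -0.30 (SE 0.14) without the Wnt LOF pair numbered 1 and at -0.40 (SE 0.13) without control LV 2 as well. In the authors' deposited table for the LV, 30 of the 35 genes lay below 0, and their smallest adjusted p-value was 0.841.

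In the RV, Wnt LOF against control gave no common direction. No gene was called by edgeR (0% of all genes) or by DESeq2. Of the 35 genes, 17 lay below 0 against 49.7% of all genes, with a median of 0.00054. Cldn5 was lower and Emcn higher at an unadjusted p below 0.05, against 1.16% of all genes lower and 1.54% higher. Cldn5 was also the only one of the 35 whose groups did not overlap, against 3.94% of all genes with lower values and 3.61% with higher ones.

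Cldn5, the tight junction protein claudin-5, had 14.8, 15.1 and 13.9 CPM in Wnt LOF RV and 21.8, 19.4 and 20.6 CPM in control RV. Every Wnt LOF RV library lay below every control RV library. The log2 fold change was -0.50 (SE 0.17, unadjusted p = 0.0103 and adjusted p = 1 by edgeR with Benjamini-Hochberg adjustment). In the LV, Cldn5 had 14.6, 12.4 and 17.2 CPM in Wnt LOF and 20.7, 12.2 and 17.1 CPM in control, with the lowest value in a control library. In the RV, Cldn5 stood at -0.51 (SE 0.20) and Emcn at 0.39 (SE 0.13) without the Wnt LOF pair numbered 1. Emcn, a sialomucin on capillary and venous endothelium, had 41.7, 48.2 and 44.9 CPM in Wnt LOF RV and 34.3, 42.7 and 29.7 CPM in control RV (log2 fold change 0.34, SE 0.13), where control RV 2 lay above the lowest Wnt LOF library. Rgcc had 35, 50 and 56.6 CPM in Wnt LOF RV and 24.8, 27.7 and 41.0 CPM in control RV (log2 fold change 0.60, SE 0.28). The number 3 library was the highest of its group for Rgcc in both RV groups and in both LV groups. Vwf had 112, 142 and 179 CPM in Wnt LOF RV and 136, 241 and 181 CPM in control RV (log2 fold change -0.36, SE 0.24), with overlapping groups.

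The defining genes had log2 fold changes between -0.034 and 0.073 in the RV. Pecam1 had 179, 160.4 and 168 CPM in Wnt LOF RV and 167, 158 and 171 CPM in control RV (log2 fold change 0.034, SE 0.094). Kdr had 273, 173 and 185 CPM in Wnt LOF RV and 243, 219 and 182 CPM in control RV (log2 fold change -0.031, SE 0.17). Flt1 had 215, 191 and 177 CPM in Wnt LOF RV and 189, 183 and 225 CPM in control RV (log2 fold change -0.034, SE 0.12). These groups overlapped throughout. Cdh5 had 152, 159 and 185 CPM in Wnt LOF RV and 163, 135 and 173 CPM in control RV (log2 fold change 0.073, SE 0.16). Leaving out each library in turn moved the median of the 35 genes between -0.041 and 0.069, and without control RV 3 there were 11 genes below 0. In the authors' deposited table for the RV, 17 of the 35 genes lay below 0, with a smallest adjusted p-value of 0.918.

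**Figure D2:**
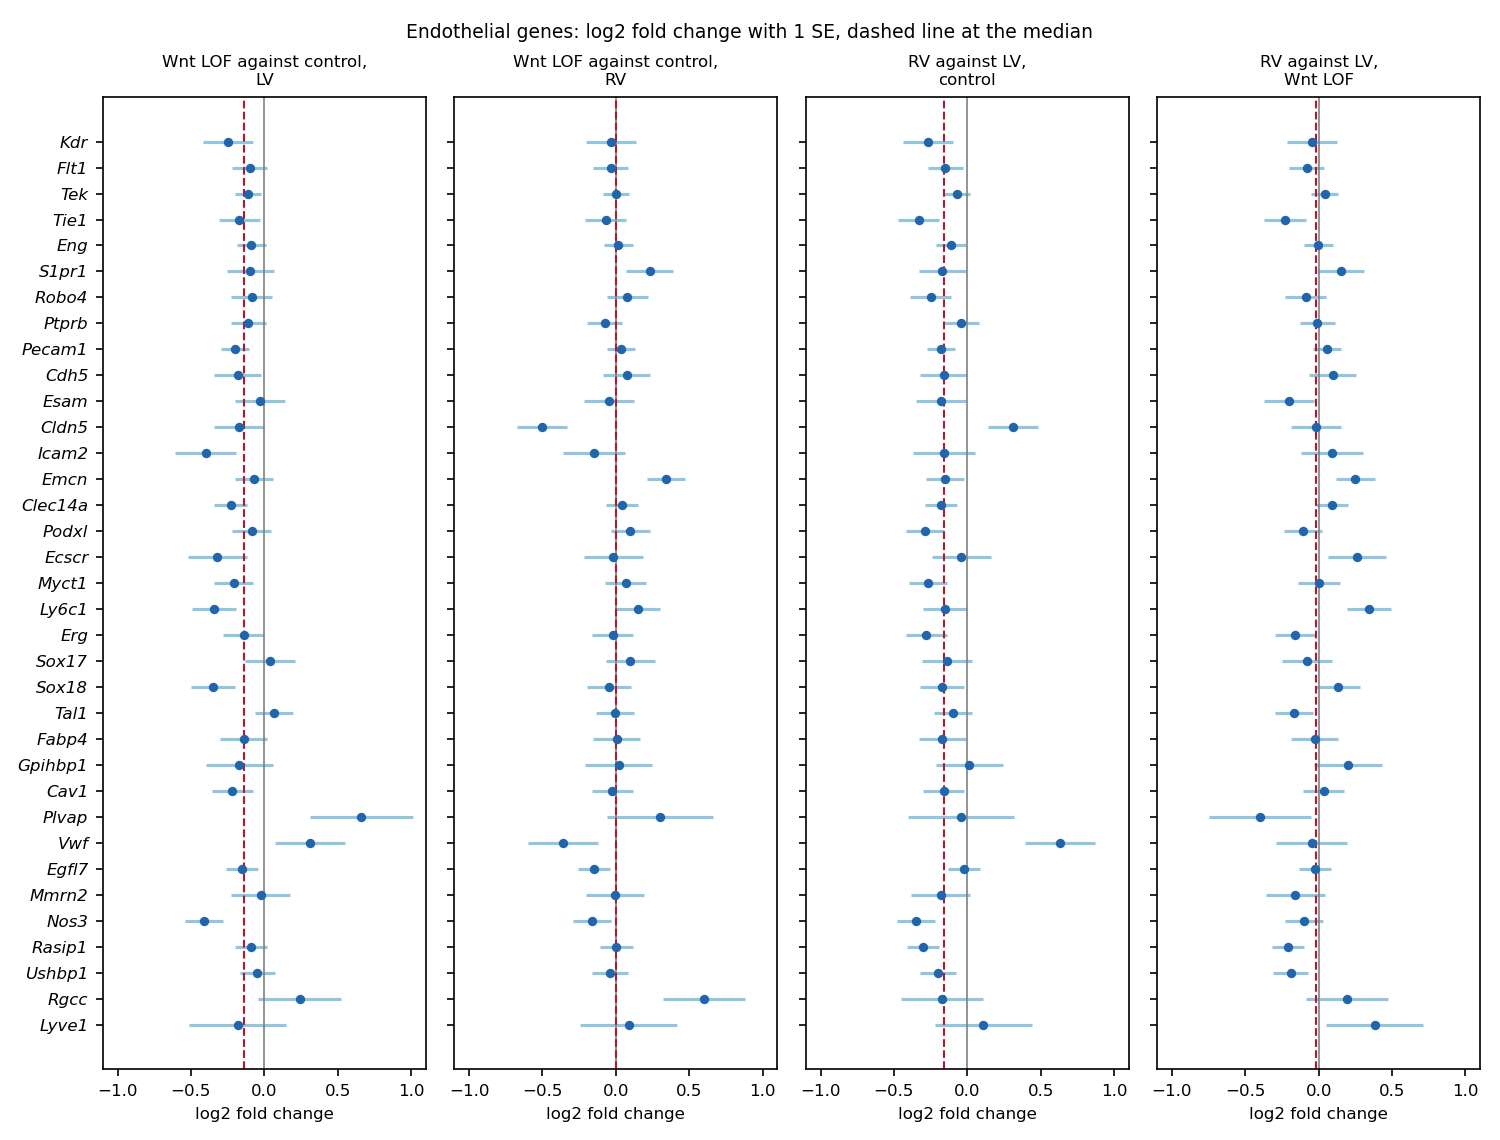
Log2 fold change of each endothelial gene with its SE, Wnt LOF against control, in each ventricle, and RV against LV in each genotype. In the LV 30 of the 35 genes lay below 0, in the RV 17, and for RV against LV 31 in controls and 20 in Wnt LOF.

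RV against LV in control hearts gave lower values for most of the 35 genes. Of these, 31 lay below 0 against 49.0% of all genes, with a median log2 fold change of -0.16. No gene was called in the fit of all 12 libraries (0% of all genes) by edgeR, or by DESeq2. At an unadjusted p below 0.05, Tie1, Podxl, Nos3 and Rasip1 were lower in RV (2.5% of all genes) and Vwf was higher (2.39% of all genes). Lower values without overlap were seen in 7 genes (Tie1, Pecam1, Podxl, Myct1, Nos3, Rasip1 and Ushbp1) against 5.92% of all genes, and higher values without overlap in 1, Vwf, against 6.68%. All 8 receptors, all 4 transcription factors and all 4 intracellular signalling genes lay below 0.

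Tie1, an orphan receptor that modulates angiopoietin signalling, had 122, 121 and 147 CPM in control RV and 158, 151 and 180.0 CPM in control LV. The RV values all lay below the LV values, with the number 3 library highest in both ventricles. The log2 fold change was -0.33 (SE 0.14, adjusted p = 0.922 by edgeR in the fit of all libraries). Rasip1, a Ras-interacting protein needed for the lumen of developing vessels, had 48.1, 44.0 and 46.7 CPM in control RV and 59.6, 54.7 and 57.0 CPM in control LV (log2 fold change -0.30, SE 0.11). Both groups were tight and apart. Nos3 had 36.0, 33.2 and 38.4 CPM in control RV and 47.6, 39.1 and 50.1 CPM in control LV (log2 fold change -0.35, SE 0.13), with control LV 2 just above the RV range. Podxl, a sialomucin of the luminal surface, had 155, 155 and 151 CPM in control RV and 194, 184 and 185 CPM in control LV (log2 fold change -0.29, SE 0.13), again without overlap. Vwf had 136, 241 and 181 CPM in control RV and 121, 122 and 118 CPM in control LV, and its log2 fold change of 0.63 (SE 0.24) was the largest upward one among the 35 genes. Its RV values were far apart from each other while its LV values were close. Without control LV 3 the median was -0.083, with 28 genes below 0, and without control RV 2 it was -0.10, with 31. Without control LV 2 it was -0.21, with 32.

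Same-numbered control RV and LV libraries deviated together, so the ventricles were also compared within pairs. The libraries of control pair 2 matched at 7 of the 9 on-off genes, so they may not be a true pair. Counts over all 3 pairs and the fit with the block include that pair. The medians of the 35 within-pair differences, RV minus LV, were -0.18, -0.15 and -0.17 in pairs 1, 2 and 3, and 31, 24 and 27 genes were lower in RV. In 19 genes RV was lower in all 3 pairs, against 18.1% of all genes, and in 2, Cldn5 and Vwf, RV was higher in all 3, against 17.4% of all genes. The 19 included 6 of the receptors (Kdr, Flt1, Tek, Tie1, S1pr1 and Robo4). With the control libraries fitted alone and the pair as a block, edgeR called 326 of 14899 genes (2.19%), of them 183 lower in RV (1.23%) and 143 higher (0.96%). The called genes included 4 of the 35, and all 4 were lower: Tie1 (log2 fold change -0.33, SE 0.07, adjusted p = 0.022), Nos3 (-0.34, SE 0.076, adjusted p = 0.0291), Rasip1 (-0.30, SE 0.071, adjusted p = 0.0366) and Podxl (-0.29, SE 0.072, adjusted p = 0.0473), by edgeR with Benjamini-Hochberg adjustment. Each of these 4 lost its call when any of the pairs was left out. Without pair 2, which holds the control library whose on-off pattern matched the Wnt LOF pair, the paired fit called 67 genes (0.447%) and none of the 35. Without pair 3 it called 193 genes (1.27%) and none of the 35. Without pair 1 it called 691 genes (4.68%), among them Vwf at 0.80 (SE 0.11, adjusted p = 6.93e-11 by edgeR) and Cldn5, both higher in RV, as were 2.99% of all genes. The Vwf differences of pairs 2 and 3 in that fit were 0.98 and 0.62. The called genes therefore changed with the pair left out. Each fit without a pair rested on 2 pairs, too few to measure the spread well. Its adjusted p-values, and the calls gained or lost in it, are therefore weak evidence.

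**Figure D3:**
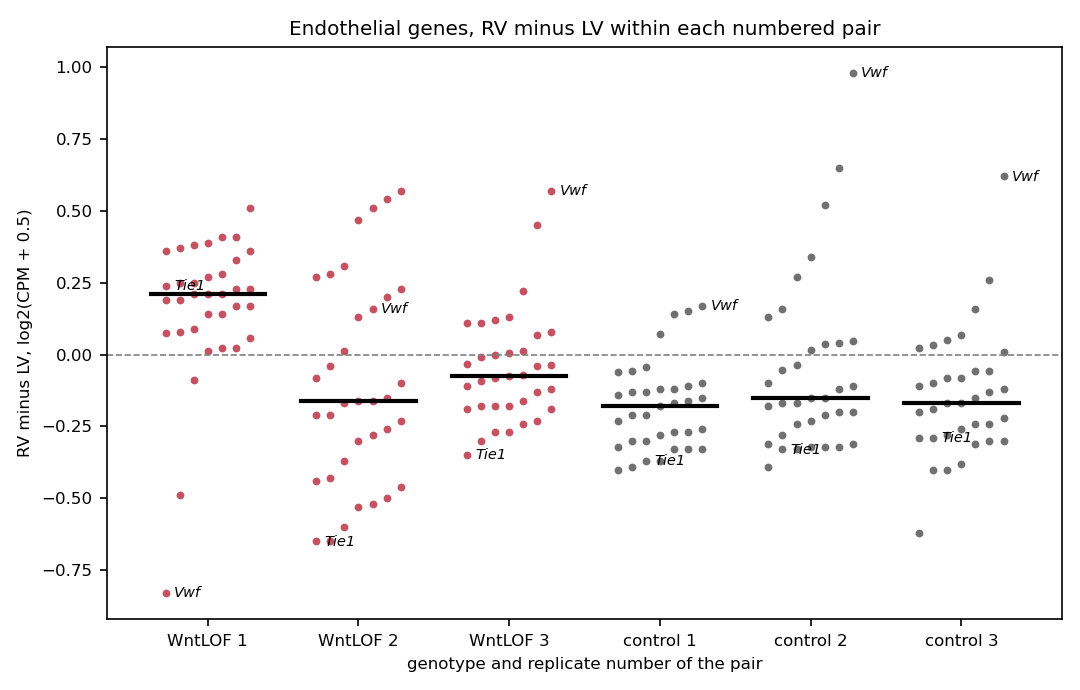
RV minus LV difference of log2(CPM + 0.5) for each of the 35 endothelial genes, 1 point per gene, in the 3 same-numbered pairs of each genotype. The Wnt LOF pair 1 differences lie mostly above 0 (median 0.21), and all other pairs have medians below 0.

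The promoters of Tie1, Rasip1, Kdr, Robo4 and Cldn5 are shown as examples. The first 4 were among the 19 genes lower in RV in all 3 control pairs, and Cldn5 was among the 2 higher. Promoters of the other such genes are not shown. The examples were picked by name, and ETS words were not counted apart for genes lower and higher in RV. The examples therefore show no tie between these words and the direction. Each is the 250 bases before the annotated start in RefSeq GRCm38.p6, 5' to 3' on the strand of the gene. Capitals mark the ETS core words CAGGAA and CCGGAA, on either strand. Nos3 and Podxl are not among the promoters used here, which cover 18 of the 35 genes.
Tie1 promoter, GRCm38.p6 chr4:118489850-118490099, minus strand: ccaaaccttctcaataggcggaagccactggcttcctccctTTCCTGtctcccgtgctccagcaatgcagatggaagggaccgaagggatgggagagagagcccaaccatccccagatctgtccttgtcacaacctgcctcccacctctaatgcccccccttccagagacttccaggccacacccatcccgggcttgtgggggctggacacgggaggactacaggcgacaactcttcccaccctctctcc
Rasip1 promoter, GRCm38.p6 chr7:45627287-45627536, plus strand: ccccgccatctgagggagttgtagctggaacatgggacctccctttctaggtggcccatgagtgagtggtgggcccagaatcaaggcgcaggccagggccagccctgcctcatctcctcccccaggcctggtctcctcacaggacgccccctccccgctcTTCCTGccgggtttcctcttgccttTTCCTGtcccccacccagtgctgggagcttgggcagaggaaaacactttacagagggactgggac
Kdr promoter, GRCm38.p6 chr5:75978456-75978705, minus strand: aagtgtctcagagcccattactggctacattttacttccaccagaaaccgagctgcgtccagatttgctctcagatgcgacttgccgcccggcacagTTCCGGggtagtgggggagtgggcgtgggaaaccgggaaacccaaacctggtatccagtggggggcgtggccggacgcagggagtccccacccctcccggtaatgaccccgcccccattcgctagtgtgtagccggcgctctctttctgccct
Robo4 promoter, GRCm38.p6 chr9:37401722-37401971, plus strand: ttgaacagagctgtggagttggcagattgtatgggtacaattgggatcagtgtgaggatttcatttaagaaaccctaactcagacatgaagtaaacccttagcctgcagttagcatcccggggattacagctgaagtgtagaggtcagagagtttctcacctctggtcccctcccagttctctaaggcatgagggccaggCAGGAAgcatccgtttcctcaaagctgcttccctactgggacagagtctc
Cldn5 promoter, GRCm38.p6 chr16:18776597-18776846, plus strand: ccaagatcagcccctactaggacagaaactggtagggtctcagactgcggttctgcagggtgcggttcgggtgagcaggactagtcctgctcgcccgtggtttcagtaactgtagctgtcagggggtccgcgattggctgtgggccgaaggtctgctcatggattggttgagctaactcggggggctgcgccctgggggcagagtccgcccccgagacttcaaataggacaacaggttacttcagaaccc
Of the 25 promoter entries of the endothelial genes, 48% held CAGGAA or CCGGAA on either strand, against 35.1% of all 32851 promoters. CAGGAA alone was in 44% against 25.7%, and CCGGAA in 4% against 12%. The SOX word AACAAT was in 16% against 9.42%, and the GATA word AGATAA in 12% against 9.99%. The Cldn5 window held no such word. Of the 18 genes with an entry, 11 had CAGGAA or CCGGAA, so other genes also lacked both. A match is a string of letters and not a tested binding site, and some genes have several entries with overlapping windows.

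In Wnt LOF hearts, RV against LV gave no common direction over the libraries as labelled, and the pair numbered 1, which stood apart from its labels, went against the other pairs. No gene was called by edgeR in the fit of all libraries (0% of all genes) or by DESeq2. Of the 35 genes, 20 lay below 0 against 50.2% of all genes, with a median of -0.018. Ly6c1 was higher in RV at an unadjusted p below 0.05 (3.22% of all genes) and none was lower (1.59%). Emcn was higher with no overlap between the groups (3.36% of all genes) and none was lower without overlap (3.7%). Ly6c1 had 77.0, 98.8 and 81.1 CPM in Wnt LOF RV and 53.8, 68.0 and 81.2 CPM in Wnt LOF LV (log2 fold change 0.34, SE 0.15, unadjusted p = 0.0396 by edgeR). Wnt LOF RV 3 and LV 3 were alike, and the other pairs differed. Emcn had 41.7, 48.2 and 44.9 CPM in Wnt LOF RV and 32.0, 39.8 and 41.3 CPM in Wnt LOF LV (log2 fold change 0.25, SE 0.13). Rasip1 had 51.9, 39.8 and 47.7 CPM in Wnt LOF RV and 46.0, 60.4 and 54.4 CPM in Wnt LOF LV (log2 fold change -0.21, SE 0.11). Tie1 had 151, 97.4 and 123 CPM in Wnt LOF RV and 127, 153 and 157 CPM in Wnt LOF LV (log2 fold change -0.23, SE 0.14). For Rasip1 and Tie1 the pair numbered 1 was higher in RV and the pairs numbered 2 and 3 were lower.

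This split by pair ran through the whole list. The medians of the within-pair differences were 0.21 in pair 1, -0.16 in pair 2 and -0.075 in pair 3, and RV was lower in 3, 23 and 24 of the 35 genes. Pair 1, in which RV was higher in 32 genes, is the pair whose Wif1 and Aqp4 levels were those of the opposite ventricle. In 2 genes, Tal1 and Plvap, RV was lower in all 3 pairs (12.5% of all genes), and in 6 genes, S1pr1, Emcn, Clec14a, Ecscr, Gpihbp1 and Lyve1, it was higher in all 3 (14.6% of all genes). Leaving out each library in turn moved the median between -0.076 and 0.07. Without pair 1, 23 of the 35 genes lay below 0 and the median was -0.11. The Wnt LOF libraries fitted alone, with the pair as a block and without pair 1, gave 241 called genes (1.60%) and none of the 35, with Tie1 at -0.49 (SE 0.12, adjusted p = 0.0535 by edgeR). That fit rested on 2 pairs, too few to measure the spread well.

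The difference between the genotype effects of the ventricles was tested as an interaction, Wnt LOF against control in RV minus that in LV. No gene was called by edgeR (0% of all genes) or by DESeq2. Of the 35 genes, 29 lay above 0 against 50.9% of all genes, with a median of 0.16. Ly6c1 (0.49, SE 0.21, unadjusted p = 0.0367) and Emcn (0.41, SE 0.18, unadjusted p = 0.0421) passed the unadjusted threshold by edgeR, against 1.05% of all genes above 0, and none passed it below 0, against 0.962%. Vwf lay lowest, at -0.68 (SE 0.34), and Pecam1 stood at 0.24 (SE 0.13). The Vwf difference of RV minus LV was -0.83 in Wnt LOF pair 1, 0.16 in pair 2 and 0.57 in pair 3. Without the Wnt LOF pair numbered 1, 19 genes lay above 0 and the median was 0.032. With control LV 2 left out as well, 13 lay below 0 and the median was 0.12. None of the 35 passed the unadjusted threshold without that pair, and 1 did with control LV 2 left out as well. None passed it without Wnt LOF LV 1 or without control LV 3. The numbers above 0 were also smaller without Wnt LOF RV 1, where 12 lay below 0, and without Wnt LOF LV 1 or control LV 3, where 10 lay below 0 in each case. The interaction shares all its libraries with the comparisons above.

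**Figure D4:**
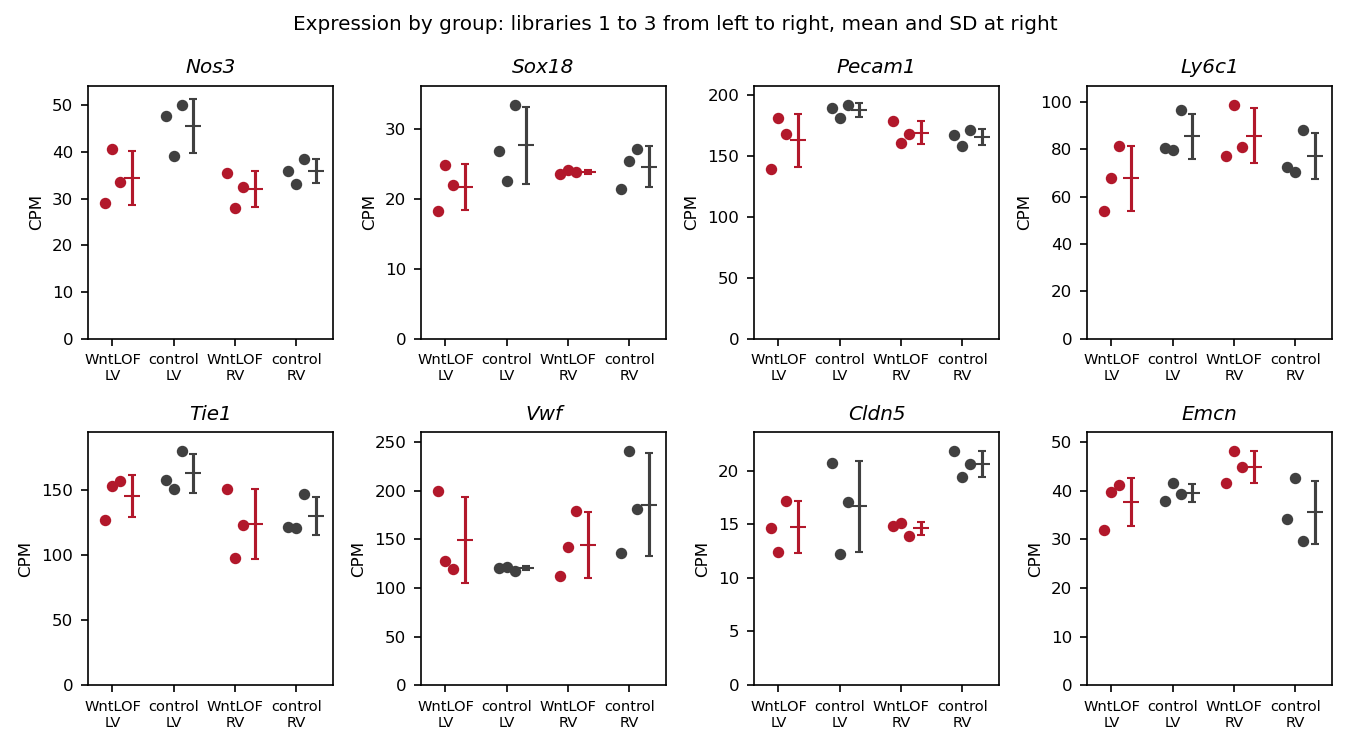
TMM-scaled CPM per library for 8 of the endothelial genes named in the comparisons, by group, with the group mean and SD at the right of each group (n = 3 libraries) and the vertical axis from 0. Cldn5 lies at 13.9 to 15.1 CPM in Wnt LOF RV and at 19.4 to 21.8 CPM in control RV.

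The other 19 of the 35 genes stayed above an unadjusted p of 0.05 in all 5 comparisons by edgeR. For Wnt LOF against control in the LV, their log2 fold changes ran between -0.40 (Icam2, an adhesion protein that binds leukocytes) and 0.07 (Tal1), and in the RV between -0.15 (Icam2) and 0.23 (S1pr1, the receptor for sphingosine-1-phosphate that steadies vessel walls). For RV against LV they ran between -0.28 (Erg, an ETS factor of endothelial identity) and 0.11 (Lyve1) in controls, and between -0.20 (Esam, a cell adhesion molecule of tight junctions) and 0.38 (Lyve1) in Wnt LOF. Lyve1 had 22.1, 23.0 and 11.1 CPM in Wnt LOF LV and 20.6, 24.0 and 18.8 CPM in control LV. It had 23.3, 34.4 and 15.3 CPM in Wnt LOF RV and 22.8, 29.1 and 16.8 CPM in control RV. The library numbered 3 was the lowest for Lyve1 in every group and the library numbered 2 the highest. Mmrn2, a matrix protein that binds Clec14a, had 82.6, 62.3 and 72.8 CPM in Wnt LOF RV and 87.3, 76.4 and 54.8 CPM in control RV. It had 71.3, 85.9 and 85.3 CPM in Wnt LOF LV and 101, 86.5 and 58.9 CPM in control LV, and its lowest value in each control group was that of library 3.

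Other endothelial genes, listed by role and not among the 35, were read by count, with no gene called. For RV against LV in controls, 15 of 17 further pan-endothelial genes lay below 0, with a median of -0.25, and 5 of them had an unadjusted p below 0.05, against 2.5% of all genes lower. For Wnt LOF against control, 14 of the 17 lay below 0 in the LV (median -0.11) and 4 in the RV (median 0.044). Of 14 further endothelial transcription factors, 12 lay below 0 for control RV against LV (median -0.15). Klf2, which responds to blood flow, averaged 26.1 ± 3.92 CPM in control RV and 36.2 ± 5.44 CPM in control LV (SD, n = 3 each), with a log2 fold change of -0.47 (SE 0.15). In the RV, Klf2 averaged 36.4 ± 1.49 CPM in Wnt LOF and 26.1 ± 3.92 CPM in control (SD, n = 3 each), with a log2 fold change of 0.48 (SE 0.14, unadjusted p = 0.00561 and adjusted p = 1 by edgeR). The Klf2 contrasts share the control RV libraries. Of 10 VEGF and angiopoietin ligands and co-receptors, 7 lay below 0 for control RV against LV, with Nrp2, a VEGF co-receptor, at -0.56 (SE 0.23) and Angpt1, the ligand of the Tek receptor, at 0.81 (SE 0.35). In the same comparison 7 of 9 arterial genes lay below 0 (median -0.11), as did 2 of 3 endocardial genes (median -0.09) and 4 of 6 genes of capillary fatty acid transport (median -0.0081). The venous and activated list had 3 of 5 genes above 0 (median 0.023), and the lymphatic list 2 of 3 (median 0.47). The 2 lymphatic genes overlapped between the groups and were highest in control RV 2. Reln had 22.3, 30.8 and 14.9 CPM in control RV and 20.4, 13.5 and 15.1 CPM in control LV. Mmrn1 had 17, 26.6 and 9.14 CPM in control RV and 14, 11.7 and 11 CPM in control LV. So few genes do not set lymphatic endothelium apart from the other lists.

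Markers of other cell types were counted in the same way, and none was called. Wnt LOF RV 3 stood apart in atrial muscle markers, with Myl7 at 10.2 CPM and Myl4 at 10.7 CPM. The other libraries held at most 1.26 CPM of Myl7 and 2.86 CPM of Myl4. Sln, also atrial, stood at 1.85 CPM in Wnt LOF RV 3 and at most at 0.167 CPM elsewhere. Nppa, a further atrial gene, stood at 22.1 CPM in Wnt LOF RV 3 and at 15.4 to 83.7 CPM elsewhere. In control RV against control LV, all 6 red cell genes lay above 0 (median 0.57) and their summed level was 164 to 248 CPM in RV and 110.2 to 139 CPM in LV. Of 5 mesothelial genes 4 lay above 0 (median 1.22), of 8 pericyte genes 6 lay below 0 (median -0.081), and of 11 cardiomyocyte genes 8 lay above 0 (median 0.01). All 4 Schwann cell genes lay above 0 (median 0.43), 1 of them at an unadjusted p below 0.05, and their summed level was 24.1 to 29.1 CPM in control RV and 20.2 to 21.7 CPM in control LV. The summed cardiomyocyte level was 167261 to 179501 CPM in control RV and 164482 to 178827 CPM in control LV, which overlapped. For Wnt LOF against control in LV, 8 of 11 cardiomyocyte genes lay below 0 (median -0.087). So did 5 of 8 pericyte genes (median -0.04) and 4 of 6 smooth muscle genes (median -0.055). Other lists went the other way, with 7 of 9 fibroblast genes above 0 (median 0.088). So did 7 of 10 macrophage genes (median 0.083) and 5 of 6 red cell genes (median 0.20). The summed red cell level was 77.5, 95.3 and 225 CPM in Wnt LOF LV and 119.9, 110.2 and 139 CPM in control LV. Only Wnt LOF LV 3 lay above the control libraries, and the other Wnt LOF LV libraries lay below them. The part of these other cells in the endothelial values was not tested. The 35 genes summed to 3315 to 3743 CPM in control RV and 3594 to 3989.7 CPM in control LV, and these ranges overlapped. Within pairs the sum was lower in RV each time, with 3449 CPM in RV against 3907 CPM in LV in pair 1, 3315 against 3594 CPM in pair 2 and 3743 against 3989.7 CPM in pair 3. In Wnt LOF the 35 genes summed to 3240.1 to 3606 CPM in RV and 3129.7 to 3698 CPM in LV.

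**Figure D5:**
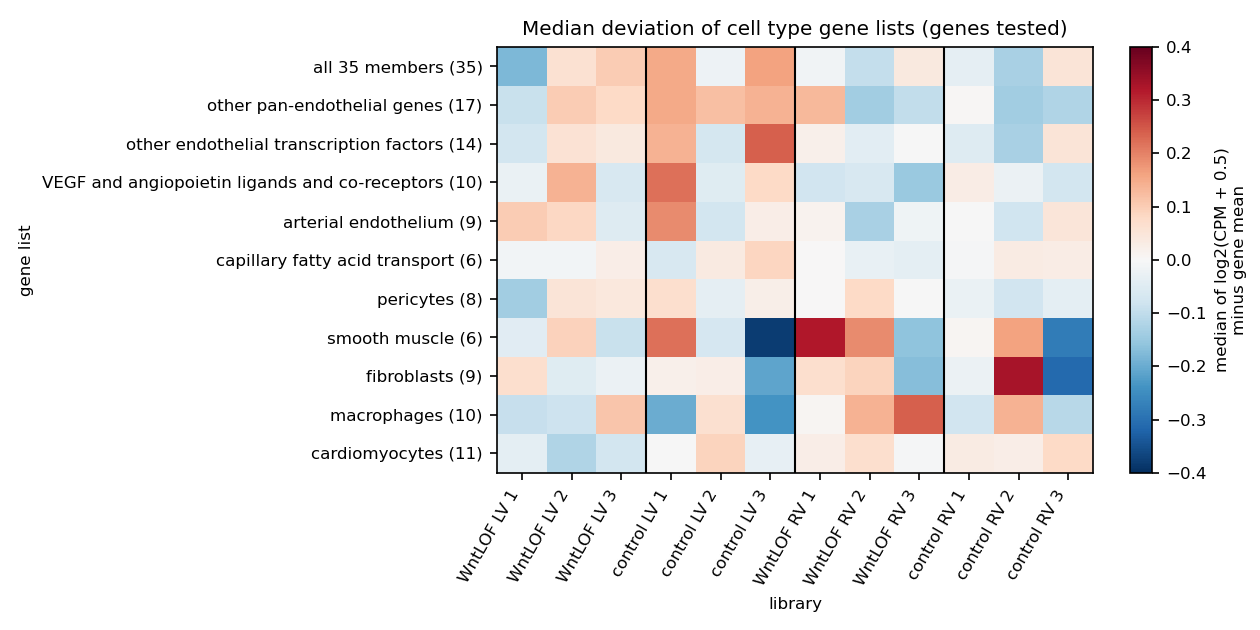
Median deviation of log2(CPM + 0.5) from each gene's mean over the 12 libraries, for each gene list (rows, number of genes tested in parentheses) and library (columns). The top row repeats the 35 endothelial genes, with -0.18 in Wnt LOF LV 1 and 0.16 in control LV 3.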

How the data were processed

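RNA was measured by RNA-seq in 12 libraries of adult mouse ventricle, 3 in each of 4 groups named from the sample titles and labels. Raw counts per Ensembl gene were deposited by the authors. Per the submitters' processing notes, featureCounts, Subread and edgeR were used, with no versions. No source used here gives the aligner, genome build or strand setting, so reads of genes that overlap on either strand cannot be told apart. Per the file headers, the authors' comparison tables hold log2 fold changes and log2 CPM values. They also hold p-values, raw and adjusted, and, as scores, t, B and a signed linear fold, per the file headers. The 598 repeated rows of 41192 were left out.

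The counts were tested in R 4.3.3 with edgeR 4.0.16, and as an alternative with DESeq2 1.42.0; limma 3.58.1 was loaded by edgeR. After TMM scaling and filterByExpr, edgeR's quasi-likelihood test was fitted to all 12 libraries with 1 mean per group, p-values were Benjamini-Hochberg adjusted over 15494 genes, and the threshold was 0.05. The steps were tested on simulated counts with known changes. At 2-fold, 68.4 to 71.0% of the changed genes were recovered, and 37.4% in the interaction. At 1.5-fold it was 18.6 to 31.5%, and 1.51% in the interaction. Smaller changes were not simulated, so a fit with no gene called does not show that no gene changed. Other scalings, filters on low counts, the compared groups alone, the replicate block and leaving out libraries were tried as alternatives. CPM per kb used exon lengths of a GENCODE mouse annotation, which may differ from the annotation behind the counts. All of Pecam1, Cdh5, Kdr and Flt1, the 4 members with the smallest unadjusted p in each comparison and every called member were named, and others were chosen after their values were seen. The members and lists were chosen with earlier results of these data known. Depth ranged from 13274922 to 19173391 counted reads.

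The labels give no pairing of replicate numbers. Control LV 2 and control RV 2 matched at 7 of the 9 on-off genes, so the control pair numbered 2 may not be a true pair. Deviations from the group means of same-numbered RV and LV libraries correlated across genes at 0.411, 0.291 and 0.518 in controls and at 0.192, 0.196 and 0.594 in Wnt LOF, so the ventricle comparisons were also fitted with the pair as a block. In Wnt LOF, the differently numbered RV 2 and LV 1 libraries correlated at 0.201 and RV 1 and LV 2 at 0.132. The correlations therefore do not set the numbers 1 and 2 apart there. The 9 on-off genes did: same-numbered Wnt LOF RV and LV libraries matched at all 9. Wnt LOF RV 2 and LV 1 matched at 7, as did RV 1 and LV 2. Same-numbered Wnt LOF and control libraries correlated at -0.0433, -0.0909 and 0.233 in LV and at 0.0888, 0.114 and 0.307 in RV, and were not taken as pairs.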

Additional observations from a re-analysis of the deposited data

How the results depend on the processing

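No value past a threshold changed direction under the alternatives tried. The number of genes called for RV against LV in controls was 0 in the fit of all libraries and 9 with the compared groups alone. With the compared groups alone and the replicate block it was 326, and without control pairs 1, 2 and 3 in turn, an alternative chosen after seeing the data, it was 691, 67 and 193. Each paired fit without a pair rested on 2 pairs, too few to measure the spread well. Without the Wnt LOF pair numbered 1 and control LV 2 the number called for RV against LV in controls was 2. For RV against LV in Wnt LOF, 1 gene was called with the replicate block, both over all libraries and with the compared groups alone. Leaving out single libraries gave between 0 and 1 there. Leaving out the Wnt LOF pair numbered 1 gave 2, with or without control LV 2, and 241 in the Wnt LOF libraries alone with the block, which was chosen after seeing the data. The interaction median over the 35 genes was 0.032 without that pair and 0.17 with the replicate block. With the replicate block the median was -0.13 for Wnt LOF against control in the LV and 0.0028 in the RV, and no gene was called, the numbers there being shared without evidence of pairing. DESeq2, other scalings and other filters on low counts left the number of genes called at 0 in the 5 comparisons. The cause of these shifts was not tested.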

Other observations

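Of 6 further genes of capillary fatty acid transport, Fabp5, a fatty acid-binding protein of endothelium and other cells, had an unadjusted p below 0.05 in both ventricles, against 1.16% of all genes lower at that threshold in the RV and 1.42% in the LV. Fabp5 had 9.11, 6.62 and 10.2 CPM in Wnt LOF RV and 13.3, 12.6 and 14.8 CPM in control RV, with no overlap, as for 3.94% of all genes with lower values there. The log2 fold change was -0.65 (SE 0.20, unadjusted p = 0.00621 and adjusted p = 1 by edgeR). In the LV it had 7.12, 9.08 and 11.1 CPM in Wnt LOF and 15.6, 10.4 and 15 CPM in control, with control LV 2 below the highest Wnt LOF library and a log2 fold change of -0.59 (SE 0.20, adjusted p = 0.999 by edgeR). Cd36, the fatty acid carrier that cardiomyocytes also make, stood at -0.015 (SE 0.093) in the RV and at -0.071 (SE 0.093) in the LV.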
